A study of Brassica rapa and Brassica rapa x Brassica nigra and Brassica nigra with 18 samples.

Results

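Brassica nigra is the black mustard and carries the B genome (BB). The data described here are its anther libraries at meiosis and at mitosis, 3 at each stage, which makes 6 of the 18 libraries of the series. The members are all genes expressed in these libraries. Of 79644 gene identifiers in the deposited count table, 42040 had at least 1 count in BB, and 25642 passed edgeR's filter on low counts and were tested. Their identifiers carry 3 prefixes. BjuB marks the B genome, with 19876 genes tested, and these form the main set. BjuO marks unplaced sequence, with 2675 genes tested. BjuA marks the A genome, which B. nigra lacks, and 3091 such genes were tested.

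The series measured messenger RNA in anthers of B. rapa (genome AA), B. nigra (BB) and an allohaploid (AB) made by pollinating B. rapa with B. nigra. The meiosis libraries are labelled as sporogenesis in young anthers and the mitosis libraries as gametogenesis in anthers. The RNA came from flower buds staged as meiosis or as the span from tetrad to maturity, so the later stage covers a range of pollen development. No treatment, transgene or plant age is stated for any group. The growth entry of the BB samples repeats the cross and the word haploid, so the ploidy of the B. nigra plants cannot be read from it. Whether the 3 libraries of a stage come from separate plants is not stated. The p-values below therefore speak only of the spread among the libraries, and this spread may be technical.

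In an anther at meiosis, pollen mother cells divide to form tetrads of haploid microspores. They are surrounded by the tapetum, a nurse layer that feeds them and supplies material for the pollen wall. The microspores then divide by mitosis into a large vegetative cell and a small generative cell, the tapetum breaks down, and the vegetative cell fills with messages for pollen tube growth. The identifiers come without gene names, and none matched the reference table of B. rapa genes. For this reason genes are described below by prefix, level, change and coding length, the markers of meiotic cells, tapetum or pollen could not be examined, and only a few identifiers are named. In whole anthers, fewer cells of a type and less RNA per cell cannot be told apart.

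The 6 libraries held between 9782001 and 11023013 counts. In the meiosis libraries BjuB genes took 84.2% ± 0.026 (SD, n = 3 here and below) of all counts, BjuO genes 10.9% ± 0.00801 and BjuA-labelled genes 4.84% ± 0.0339. At mitosis these shares were 83.5% ± 0.0609, 10.8% ± 0.0685 and 5.74% ± 0.0132. The shift between prefixes was small, below 1 percentage point for each, yet the libraries of the stages did not overlap for any of the 3 prefixes. The differences were -0.741 points for BjuB, -0.158 for BjuO and 0.898 for BjuA-labelled genes. For each, the exact permutation test (two-sided) gave p = 0.1, which is its lower limit with 3 libraries a stage. The direction of the BjuB difference depended on the most abundant genes of all prefixes. Without the 100 most abundant genes, the differences were 0.4 points for BjuB, -0.715 for BjuO and 0.315 for BjuA-labelled genes.

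More than 50% of the message pool was redistributed between the stages. Libraries of different stages placed between 51.3% and 52.0% of their counts on different genes, that is, this share of one library would have to move to other genes to give the other. Libraries of the same stage differed by 2.92% to 3.26% at meiosis and by 3.64% to 4.23% at mitosis. On the log2(CPM + 1) scale, where CPM is the count scaled to a common library total, Pearson's r across genes was 0.991 between any pair of meiosis libraries and 0.988 between any pair of mitosis libraries. Between stages it was 0.542 to 0.550. Genes are not independent replicates, so these values only describe the libraries. Each pair of libraries of 1 stage differed by more than sampling noise, with chi-square values of 2.44 to 3.19 per degree of freedom, so none was treated as a repeat deposit.

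The most abundant genes were largely different ones. Of the 100 genes with the highest mean CPM at meiosis and the 100 highest at mitosis, 20 were the same, which is 20% of each list. Of the 1000 highest, 368 were shared. The 100 leading genes of meiosis had a median of 1092 CPM at meiosis and still 252 CPM at mitosis. The 100 leading genes of mitosis had a median of 1586 CPM at mitosis and 1.06 CPM at meiosis, and 49 of them were under 1 CPM at meiosis. By comparison, 5 of the meiosis leaders were under 1 CPM at mitosis. Of the meiosis leaders, 89 were called lower at mitosis, beside 37.5% of all genes tested. Of the mitosis leaders, 87 were called higher, beside 40.6% of all genes. Most meiosis leaders were still present at mitosis, whereas the mitosis leaders had a typical level near the detection limit at meiosis. These lists were chosen on the same libraries, so the contrast is a description.

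The counts gained by rising genes amounted to 51.4% of a library. The gain was concentrated: 120 genes supplied 50% of it, whereas 50% of the loss was spread over 387 genes. Of the gain, 83.1% fell on BjuB, 11.0% on BjuO and 5.88% on BjuA-labelled genes, and of the loss 84.5%, 11.3% and 4.13%. The top 10 genes of a library held 8.66% ± 0.0375 of its counts at meiosis and 9.91% ± 0.166 at mitosis (exact permutation p = 0.1, the smallest possible). At the same time the later libraries detected more genes. The number of genes at 1 CPM or more was 22524 ± 160 at meiosis and 23914 ± 172 at mitosis, and 8301 ± 7.02 genes made up 90% of the counts at meiosis against 8893 ± 47 at mitosis (exact permutation p = 0.1 for each). The single most abundant gene went the other way, at 3.05% ± 0.0436 in the meiosis and 2.26% ± 0.0493 in the mitosis libraries (exact permutation p = 0.1).

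Most genes changed. By the quasi-likelihood test of edgeR, with p-values adjusted after Benjamini and Hochberg over all 25642 genes, 78.1% passed an adjusted p of 0.05, with 40.6% higher and 37.5% lower at mitosis. At least 2-fold, 28.2% were higher and 22.9% were lower, 51.1% in either direction. Among BjuB genes 8199 rose, 7570 fell and 4107 were not called, and 5635 rose and 4510 fell at least 2-fold. BjuB genes make up most of the genes tested, so their shares of 41.3% higher and 38.1% lower are near those of all genes. The balance of rising and falling genes depended on the scaling. With TMM factors, 51.9% of all calls were rises, and over the alternatives this share ran from 46.8% to 52.8%. Library totals alone moved the median log2 change of all genes by -0.152 and gave 7449 BjuB genes higher and 8365 lower. At least 2-fold, that setting gave 5170 BjuB genes higher and 5170 lower, so the excess of larger rises also depended on the scaling.

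The changes were not symmetrical in size. The median log2 change of BjuB genes was 0.06, and the middle 50% lay between -0.90 and 1.22. The upper tail reached farther than the lower one: the 95th percentile was 6.74 and the 5th percentile -3.57. Of all called genes, 34.6% changed by less than 2-fold.

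**Figure D1:**
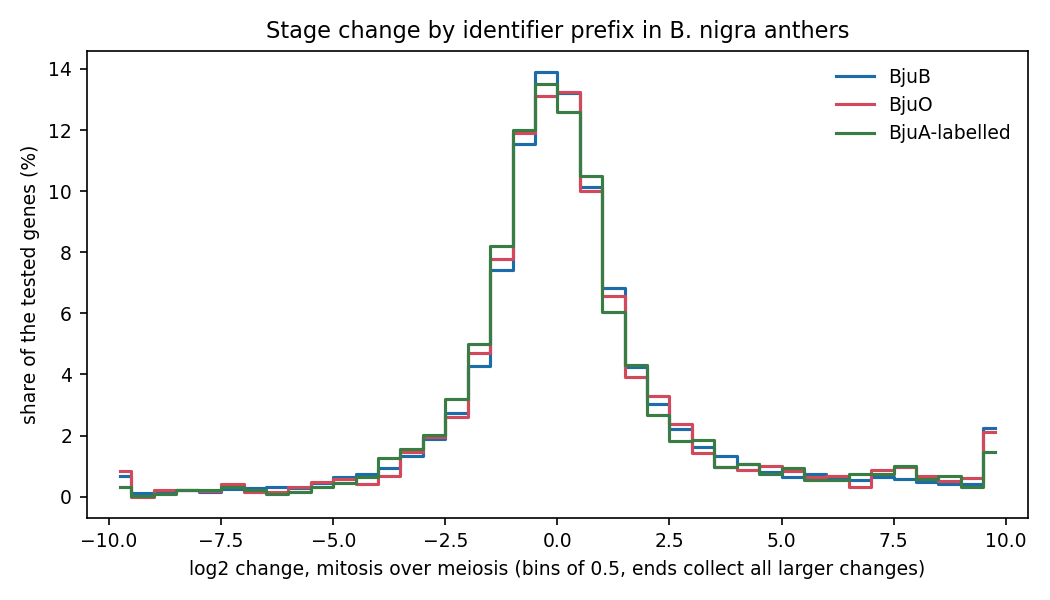
Distribution of the log2 change from meiosis to mitosis (horizontal axis, bins of 0.5, with larger changes collected in the end bins) as the share of tested genes (vertical axis, %), for BjuB, BjuO and BjuA-labelled genes. The 3 curves lie close together, and the right tail is longer than the left: the 95th percentile of BjuB genes is 6.74 and the 5th is -3.57.

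The genes were then grouped by size of change, which describes the same contrast and is not a further test. The strongest risers numbered 1894, of which 1441 were BjuB, 219 BjuO and 234 BjuA-labelled, and rose at least 32-fold. Their share of all counts went from 0.0917% ± 0.000495 to 33.8% ± 0.607. The next 1226 genes, which rose 8- to 32-fold, went from 0.403% ± 0.00202 to 4.88% ± 0.00857. The 4111 genes that rose 2- to 8-fold went from 5.08% ± 0.0141 to 14.6% ± 0.124. Most reads on rising genes at mitosis were thus in the top group, and the step of 8- to 32-fold carried fewer reads than either neighbour.

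Falling genes had another profile. The 705 genes with a drop of 32-fold or more went from a share of 11.2% ± 0.00161 to one of 0.0805% ± 0.0142. The 925 genes that fell 8- to 32-fold held a similar share, 11.4% ± 0.0316 at meiosis and 0.718% ± 0.0551 at mitosis. The largest loss of counts came from the 4236 genes that fell 2- to 8-fold, from 26.5% ± 0.0585 to 7.65% ± 0.0789. The gain of mitosis therefore lay mainly in genes that went from near absence to abundance, and the loss lay more in genes that were reduced in part. Genes under 2-fold or not called, 12545 in number, held 45.0% ± 0.0761 of all counts before and 37.9% ± 0.337 after.

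**Figure D2:**
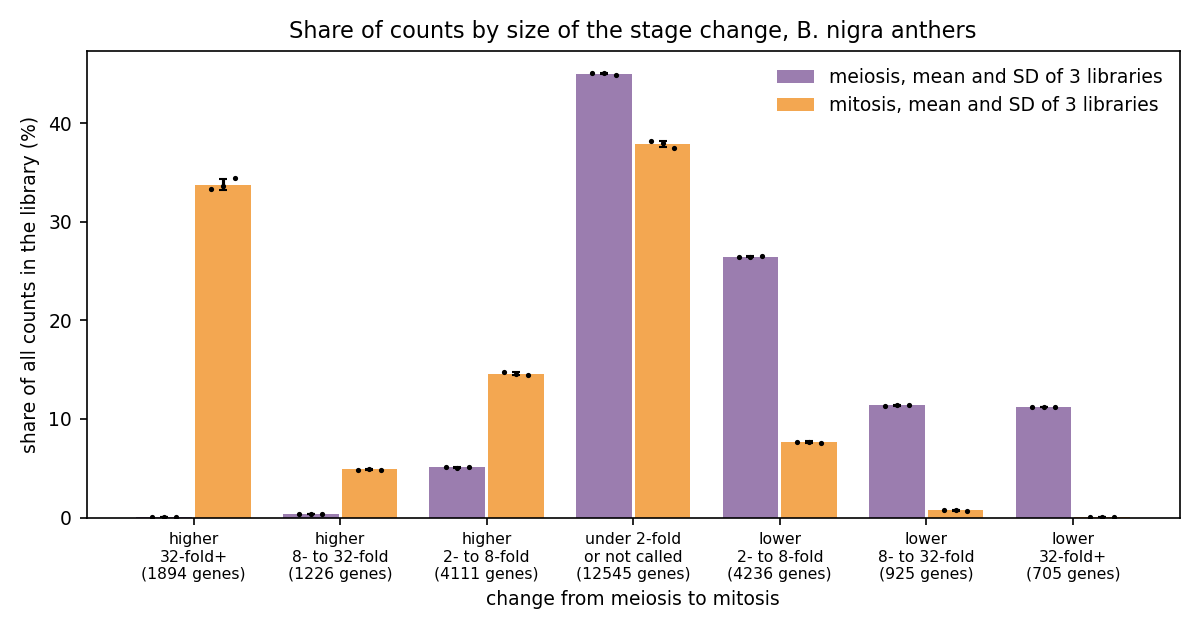
Share of all counts in a library (vertical axis, %) held by genes grouped by their change from meiosis to mitosis (horizontal axis, with the number of genes); bars are means of 3 libraries with SD, and dots are single libraries. The genes raised 32-fold or more hold 0.0917% at meiosis and 33.8% at mitosis, whereas the falling side is spread over 3 groups that held 26.5%, 11.4% and 11.2% at meiosis.

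The BjuB genes that moved the most reads are described one by one. BjuB043854 gained most. Its counts in the meiosis libraries were 1, 5 and 2, and its levels at mitosis were 23264, 23888 and 24543 CPM. It was thus close to undetected in all 3 meiosis libraries and the most abundant gene of B. nigra at mitosis, also per length, with 18010 ± 393 FPKM (counts scaled by coding length and by the library's total). The ratio of mitosis to meiosis was 101000, with a 95% exact interval of 51400 to 235000 that covers counting error only. The fitted log2 change was 16.56 (edgeR adjusted p = 3.01e-24). Fitted changes of genes with so few counts at one stage depend on the prior count of the fit, so the ratio and its interval are the better guide to size.

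BjuB032977 showed the same course. It had 4, 2 and 0 counts at meiosis and 17210, 17571 and 18202 CPM at mitosis. It was the second most abundant gene at mitosis by CPM, and the fourth per length, with 13214 ± 308 FPKM. The ratio was 99800 (95% exact interval 45800 to 272000), and the fitted log2 change was 16.51 (edgeR adjusted p = 6.19e-24). The coding lengths behind the FPKM values of these genes are similar, 1254 bases for BjuB043854 and 1263 for BjuB032977. Whether they are copies of one gene was not examined, and reads of near-identical copies can be split between them.

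Of the falling BjuB genes, BjuB019408 lost most reads. It stood at 28916, 29481 and 28658 CPM at meiosis, the highest level of any gene at that stage, and at 2227, 2074 and 1690 CPM at mitosis. Its decrease was partial, since it remained among the 41 most abundant genes at mitosis. The log2 change was -3.86 (SE 0.08, edgeR adjusted p = 1.21e-18), and the spread among mitosis libraries, 277 CPM, was large against their mean of 1997 CPM but small against the change. It is the gene behind the 3.05% share of unadjusted counts that the single most abundant gene took at meiosis.

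BjuB041169 fell to a handful of counts. It stood at 17552, 17600 and 17133 CPM at meiosis and had 5, 2 and 1 counts at mitosis. The ratio of meiosis to mitosis was 62900 (95% exact interval 31900 to 146000), and the fitted log2 change was -15.88 (edgeR adjusted p = 3.01e-24). Its coding length is 291 bases, against 534 for BjuB019408. Per length it was therefore the highest gene at meiosis, with 62929 ± 817 FPKM against 57099 ± 817 FPKM for BjuB019408. The 2 leading genes of meiosis thus changed order between the scales, and they ended at very different levels. None of the 4 BjuB genes drew more than 0.603% of its CPM in the parents from AA.

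**Figure D3:**
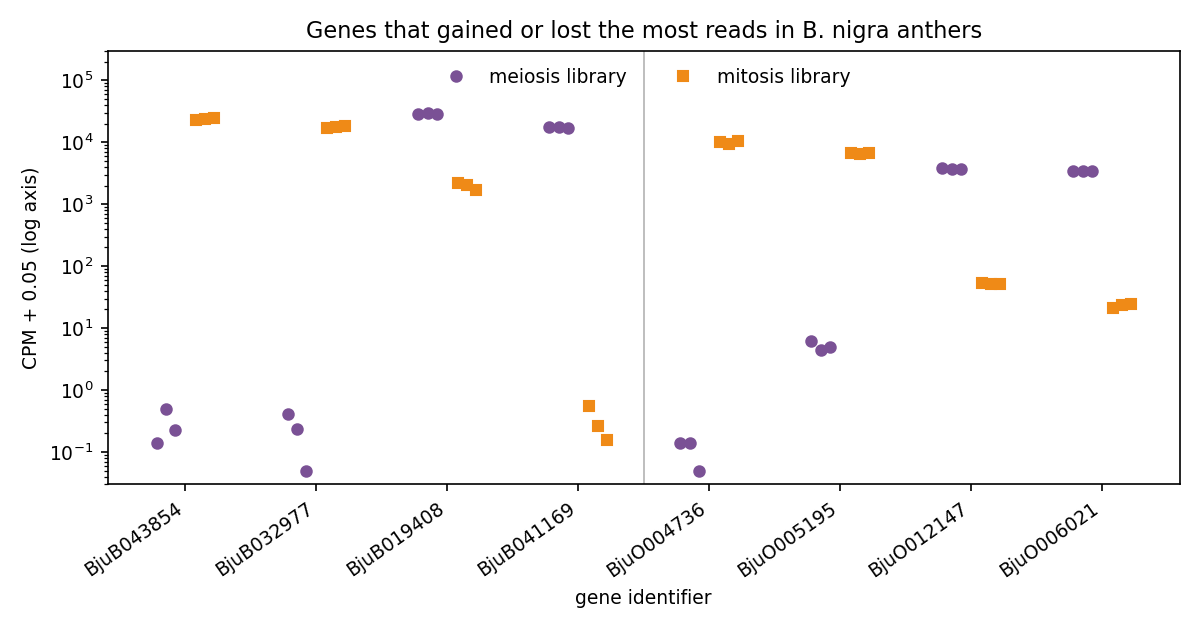
Level of the 4 BjuB and 4 BjuO genes that gained or lost the most reads, as CPM + 0.05 on a log axis (vertical), in each of the 3 meiosis libraries (circles) and 3 mitosis libraries (squares). The stages do not overlap for any of these genes, which were chosen for their change, and BjuB019408 keeps a level of 1690 to 2227 CPM at mitosis where BjuB041169 is at 1 to 5 counts.

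Detection at 1 stage was more common at mitosis. With 1 CPM as the limit in all 3 libraries of a stage and under it in all 3 of the other, 2710 genes were detected at mitosis only, 1502 at meiosis only and 18418 at both. The BjuB counts were 2016, 1077 and 14783. The BjuB genes detected at mitosis only took 20.8% ± 0.384 of all counts at that stage, against 0.0432% ± 0.000692 at meiosis. Those detected at meiosis only took 4.74% ± 0.0212 at meiosis and 0.0291% ± 0.00148 at mitosis. The stage-limited genes of mitosis were thus more numerous and carried more reads. Their typical level was still low: the median was 6.16 CPM for the BjuB genes of mitosis and 3.78 CPM for those of meiosis, and 205 of the former and 74 of the latter reached 100 CPM.

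Some of these genes had 0 counts in all 3 libraries of a stage. Among tested BjuB genes 533 had 0 counts at meiosis and 190 had 0 counts at mitosis. Such genes passed the filter through the stage in which they are present, so that they were called is no finding. A count of 0 in 3 libraries allows up to 3 counts over the stage, which is 0.0929 CPM at meiosis and 0.0982 CPM at mitosis. Of the BjuB genes at 0 at meiosis, 262 reached 10 CPM and 71 reached 100 CPM at mitosis. Of those at 0 at mitosis, 75 had been at 10 CPM and 16 at 100 CPM at meiosis. Against that floor, the most extreme of the former was at least 46200-fold higher at mitosis and the most extreme of the latter at least 4560-fold lower.

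The BjuO genes, which lie on sequence not placed on a chromosome, moved much as the BjuB genes did. Of 2675 tested, 1102 rose, 1002 fell and 571 were not called, and 764 rose and 615 fell at least 2-fold. These are 28.6% and 23.0% of the BjuO genes, beside 28.2% and 22.9% of all genes. Their median log2 change was 0.06, with a middle 50% between -0.90 and 1.25, a 5th percentile of -3.31 and a 95th percentile of 7.43. No test between the prefixes was run. The strongest risers made up 8.19% of BjuO and 7.25% of BjuB genes, and those that fell at least 32-fold made up 2.95% and 2.83%. BjuO genes held 18 of the 100 leading places at meiosis and 8 at mitosis. They are 2675 of the 25642 genes tested and took 10.9% and 10.8% of all counts at these stages.

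BjuO004736 gained most among BjuO genes. It had 1, 1 and 0 counts at meiosis and stood at 9985, 9258 and 10301 CPM at mitosis, which made it the fourth most abundant gene of that stage. With 2 counts at meiosis in all, the ratio was 167000 and its 95% exact interval ran from 46200 to 1380000. BjuO005195 was detected at meiosis, at 6.13, 4.34 and 4.91 CPM, and rose to 6612, 6557 and 6813 CPM. Its log2 change of 10.34 (edgeR adjusted p = 8.57e-24) rests on 174 counts at meiosis, against 2 to 8 for the other named genes that rose. Among all genes it ranked 15152 at meiosis and 7 at mitosis.

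The BjuO genes that lost most reads were still detected in every mitosis library. BjuO012147 stood at 3822, 3754 and 3730 CPM at meiosis and at 53.5, 51.3 and 51.6 CPM at mitosis. This was a change of -6.18 on the log2 scale (SE 0.05, edgeR adjusted p = 2.26e-23). BjuO006021 stood at 3492, 3475 and 3401 CPM and then at 21.3, 24.0 and 24.7 CPM, a change of -7.21 on that scale (SE 0.06, edgeR adjusted p = 2.28e-23). Both were among the 8 most abundant genes at meiosis, and their libraries agreed closely within each stage. These losses were far larger than that of BjuB019408 in fold, though smaller in reads.

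The BjuA-labelled genes need care, because B. nigra has no A genome and a read can be assigned to the wrong one of 2 near-identical copies. The source of these reads was not tested. Of 3091 such genes, 1103 rose and 1055 fell, so 69.8% were called, against 78.1% of all genes. With all 18 libraries in the fit these counts were 1859 and 1507, but over a larger set of BjuA-labelled genes, since that fit tested 48507 genes. Their levels were lower, with a median of 2.86 CPM at meiosis against 9.55 CPM for BjuB genes, and at low levels fewer genes were called in general. Of them, 935 drew under 10% of their parental CPM from AA and so were counted mainly in B. nigra in spite of their label. In this group 78.0% were called, and 258 rose and 216 fell at least 2-fold. Another 1216 drew 90% or more from AA, and of these 62.7% were called.

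The same identifiers could be followed in the AA libraries, which share no library with BB. Of the 1216 BjuA-labelled genes counted mainly in AA, 403 changed at least 2-fold in both species, and 386 of these, or 95.8%, changed in the same direction. Spearman's rho of the stage changes across these 1216 genes was 0.716. Among the BjuB genes counted mainly in BB, 978 were also tested in AA, and 303 of 321 genes that changed at least 2-fold in both, or 94.4%, went the same way, with a rho of 0.683. Genes are not independent, and both values of a point rest on the same gene model.

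The share of called genes followed abundance. When the tested genes were ordered by mean CPM over the 6 libraries and split into 10 equal groups, 63.8% were called in the lowest group, from 0.516 to 1.5 CPM, and 94.1% in the highest, above 79.8 CPM. The spread between libraries fell in step, with a median coefficient of variation at meiosis of 33.4% in the lowest group and 3.29% in the highest. Mitosis libraries varied a little more in the highest group, at 4.41%. In the lowest group 35.7% of genes rose and 34.9% rose at least 2-fold, so nearly every call there was a large change. With so wide a spread small changes can hardly be called, so this describes the test more than the genes.

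The direction also varied with abundance. In the lowest group 35.7% rose and 28.1% fell, and in the highest group 39.2% rose and 54.9% fell. Rises outnumbered falls in the 7 lower groups and falls outnumbered rises in the 3 upper ones. The order at both ends was the same with relative log expression factors, upper-quartile factors and library totals alone, but the groups between shifted. With library totals alone, 33.4% rose and 30.6% fell in the lowest group, 35.4% and 58.6% in the highest, and falls led in 7 groups. Large changes were most common at both ends: changes of at least 8-fold made up 29.4% of the lowest group, 13.6% of the seventh and 24.4% of the highest. At the low end the filter favours this, since genes with so low a mean pass it mainly through a stage in which they are higher. The share in the lowest group is therefore no finding about rare genes.

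**Figure D4:**
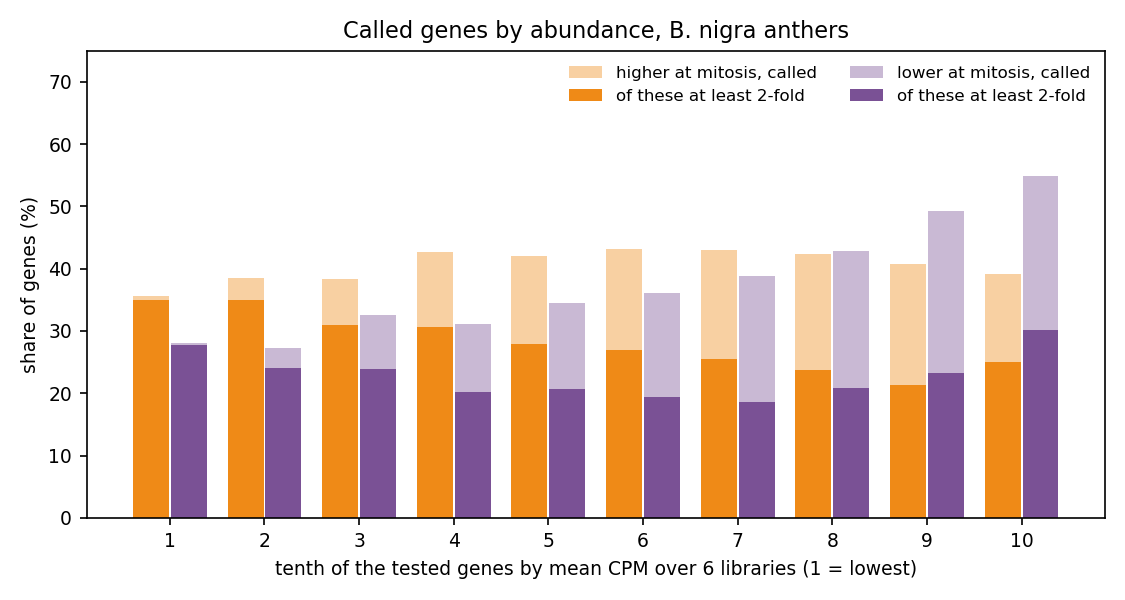
Share of genes called higher (orange) or lower (purple) at mitosis (vertical axis, %) in 10 equal groups of the tested genes ordered by mean CPM over 6 libraries (horizontal axis); pale bars are all calls and dark bars are changes of at least 2-fold. Falls rise from 28.1% in the lowest group to 54.9% in the highest, while rises stay between 35.7% and 43.1%.

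Coding length, which the deposited FPKM values imply, differed little between the groups. BjuB genes that rose at least 2-fold had a median of 1119 bases (middle 50% 687 to 1641), those that fell at least 2-fold 1050 (678 to 1506) and those not called 1137 (690 to 1713). Over all prefixes, the genes that rose at least 32-fold had a median of 1000.5 bases and those that fell at least 32-fold 987, against 1173 for genes under 2-fold or not called. The groups at both extremes were thus somewhat shorter, with ranges that overlap widely.

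The stage change of BjuB genes was then compared with that in the AB allohaploid, which carries a B genome beside an A genome. The difference between the stage changes was tested over 21204 BjuB genes in the BB and AB libraries, with scaling from BjuB genes alone. The filter ran over the BB and AB groups together. This set is therefore larger than the 19876 BjuB genes tested in BB, and includes genes that passed through AB alone. In this interaction test 47.8% were called, 5134 with a more positive and 5012 with a more negative change in AB (edgeR adjusted p under 0.05). At least 2-fold, 3143 and 3048 differed. The split depended on the scaling. With library sizes and TMM from all genes, 7215 were more positive and 3595 more negative. In the first fit, leaving genes counted in both parents out of the tally gave 4913 more positive and 4774 more negative. A refit without them, which also recomputed the scaling, gave 5519 and 4318. AB libraries also hold A-genome messages, and whether reads of these were counted on BjuB genes was not tested. The stage change itself was mostly shared in direction. Called in both, 11873 genes moved the same way and 1334 the opposite way, and 2761 genes were called in BB only.

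Among genes with a large change in BB, calls of a smaller change in AB outnumbered calls of a larger one. In the fit of BjuB genes over the 12 libraries, 5823 rose and 4665 fell at least 2-fold in BB. In the fit of BB alone these numbers were 5635 and 4510. Of the 5823 that rose, 1835 were more negative in AB and 888 more positive, with a median difference of -0.54 in log2. Of 4665 that fell at least 2-fold in BB, 1720 were more positive and 535 more negative, with a median difference of 0.50. These groups were chosen on the BB libraries that also enter the difference, which favours a smaller change in AB, so the counts are a description. With library sizes and TMM from all genes, the risers (5764 of them tested) gave 1498 more negative and 1207 more positive, and the genes that fell (4627 tested) gave 2196 more positive and 324 more negative. The excess among risers was thus smaller under that scaling.

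All 4 named BjuB genes changed less in AB than in BB, and they too were chosen for a large change in BB. BjuB043854 went from 2.04 ± 0.416 to 10192 ± 74.7 CPM of the BjuB counts in AB, and from 0.291 to 29001 CPM in BB. The difference in log2 change was -4.26 (edgeR adjusted p = 4.26e-10). More of it came from the meiosis levels, which rest on 32 counts in AB and 8 in BB, than from the mitosis levels. BjuB032977 differed by -3.68 (SE 0.72, edgeR adjusted p = 9.68e-05), with 13 counts at meiosis in AB and 6 in BB. BjuB019408 fell from 17805 ± 281 to 6135 ± 304 CPM in AB, so that its difference was 2.33 (SE 0.09, edgeR adjusted p = 9e-19). Of the 4, this gene has the most counts at its lower stage and so the most precise difference. BjuB041169 differed by 2.92 (SE 0.63, edgeR adjusted p = 0.000344), but its counts in AB at mitosis were 8, 4 and 41, and without the library with 41 counts the difference was 1.43 with an adjusted p of 0.0515.

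**Figure D5:**
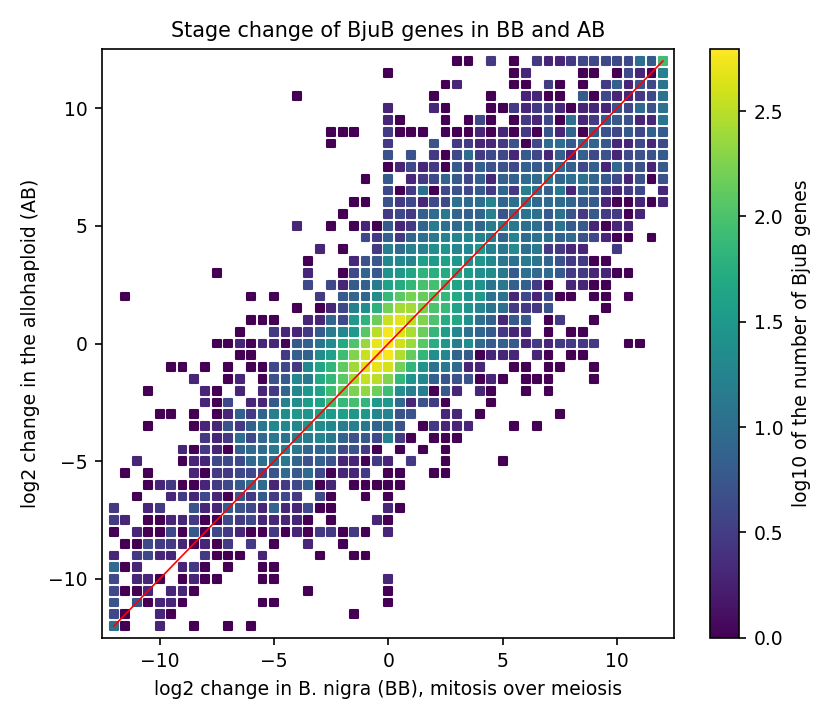
Log2 change from meiosis to mitosis of 21204 BjuB genes in B. nigra (horizontal axis) and in the AB allohaploid (vertical axis), in steps of 0.5 and limited to 12 in either direction; colour gives the log10 number of genes per square and the red line marks equal change. The squares with the most genes lie along the line, and 1334 genes were called in opposite directions.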

How the data were processed

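The deposited table of raw counts per gene was the main input, and the authors' FPKM values were used for levels per length and for alternatives. The submitters' processing notes name HTSeq 0.6.0, TopHat2, HISAT2 2.1.0 and Bowtie 1.0.1. Neither their roles nor the strand setting, annotation or genome build is given in the sources used here. A and B genes stand in the same table. Each FPKM value equalled count over a fixed length and library total, with a largest relative deviation of 5.32e-08, and 99.93% of these lengths were multiples of 3, hence coding lengths. A repeat of an AA library's column (1 column) was not used.

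The 6 BB libraries were fitted with edgeR 4.0.16 in R 4.3.3 (quasi-likelihood F test, TMM factors over all genes, filter by group). P-values were adjusted by Benjamini-Hochberg over all 25642 genes, with calls at an adjusted p under 0.05. The comparison with AB used BjuB genes in 12 libraries. Each standard error is the log2 change over the root of F. This value falls below the counting error for some genes with few counts at a stage, and it is left out for those. Named genes, 2 in each direction for BjuB and for BjuO, had the largest gain or loss of mean CPM among calls of at least 2-fold, passing over genes with 10% or more of their parental CPM in AA. Members and groupings were chosen with earlier results of these data known. No identifier matched the table of 51589 B. rapa genes, so no gene list or marker was used. Scripts were tested on simulated data. Alternatives were DESeq2 1.42.0, other scaling factors, no filter, a replicate block, all 18 libraries, BjuB genes alone, limma 3.58.1 on log2(FPKM + 1) and log2(FPKM + 0.1), leaving out genes counted in both parents, other detection limits, and leaving out each library. Precision is limited by 3 libraries a stage and by totals of 9782001 to 11023013 counts a library. Intervals and floors cover counting error only.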

Additional observations from a re-analysis of the deposited data

Results flagged for a closer look

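The stage change of BjuB genes differed between B. nigra and the AB allohaploid by a test of the difference itself. It was more positive in AB for 5134 genes and more negative for 5012 of 21204 tested, and with library sizes and TMM from all genes for 7215 and 3595. Leaving genes counted in both parents out of the tally of the first fit gave 4913 and 4774. A refit without them, which also recomputed the scaling, gave 5519 and 4318. The tested genes include some that passed the filter through AB alone. All 4 named BjuB genes, chosen for a large change in the BB libraries that also enter the difference, were among the genes that differed. Their differences in log2 change were -4.26 for BjuB043854, -3.68 for BjuB032977, 2.33 for BjuB019408 and 2.92 for BjuB041169. The last of these did not pass the threshold without AB replicate 3 at mitosis.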

How the results depend on the processing

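The counts of BjuB and BjuO genes called higher or lower stayed within 1.5 times of those reported under every alternative run. For BjuB genes the range was 7302 to 9148 higher and 7128 to 8365 lower, and leaving out a library gave 8059 to 8198 and 7401 to 7510. More BjuB genes fell than rose with upper-quartile factors, with library totals alone and with limma on either FPKM scale. These settings moved the median log2 change of all genes by -0.107, -0.152, -0.136 and -0.154. At least 2-fold, library totals alone gave 5170 BjuB genes higher and 5170 lower. Limma gave 4425 and 4461 on log2(FPKM + 1), and 5088 and 5114 on log2(FPKM + 0.1). In every other setting, BjuB rises of at least 2-fold outnumbered falls. With all 18 libraries in the fit, 1859 BjuA-labelled genes were higher instead of 1103; that fit tested 48507 genes. Without the 100 most abundant genes of all prefixes, the BjuB share of counts rose by 0.4 points at mitosis. The differences were then -0.715 points for BjuO and 0.315 for BjuA-labelled genes. The fitted log2 changes of the named genes kept their sign throughout, but that of BjuO004736 ran from 12.60 to 17.41. Same-numbered libraries of the stages did not vary together (correlations of deviations -0.0139, -0.0189 and -0.0065). Such deviations hold much counting noise, so they cannot decide whether the numbers pair the libraries. With the replicate block, 8040 BjuB genes were higher and 7408 lower, and 4845 and 4733 differed between AB and BB.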
